A study of Mus musculus with 11 samples.

Results

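The 10 genes described here encode the transforming growth factor beta ligands (Tgfb1, Tgfb2, Tgfb3), the activin A subunit (Inhba), the latent TGF-beta binding proteins (Ltbp1, Ltbp2, Ltbp3, Ltbp4) and the pair of TGF-beta receptors (Tgfbr1, Tgfbr2). They were chosen by symbol from the 46517 gene identifiers of the count table, and each matched 1 identifier. Their positions below are on GRCm38 (GENCODE M21). All 10 passed the filter on low counts. Bulk RNA-seq counts came from the ventricular myocardium of 11 mice with a cardiomyocyte deletion of Lmnb2, which encodes the nuclear envelope protein lamin B2, or without it. The mice underwent transverse aortic constriction (TAC), a surgical narrowing of the aortic arch that loads the left ventricle with pressure, or sham surgery. The series title poses the question of how fewer nuclear pores in cardiomyocytes bear on gene regulation and the cardiac stress response.

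The label KO stands for Tnnt2-Cre Lmnb2 Flox/Flox mice, and WT for Tnnt2-Cre controls. The genotype label of WT sham 2 reads WT alone, while the other WT libraries are labelled Lmnb2 WT, and it was taken as the same genotype. By the protocol, Cre, driven by the promoter of the cardiac troponin T gene and so active in cardiomyocytes, was present in controls too. Sham surgery gave 2 libraries in WT and 3 in KO, TAC gave 3 in each genotype, and surgery was performed at 10 to 12 weeks of age. The sources used here do not give the time from surgery to tissue collection. The labels do not say whether the libraries came from separate litters or operation days, so their independence cannot be checked. The p-values rest on the spread between these samples.

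TGF-beta is secreted in a latent form, held by its own propeptide, which is commonly bound to a latent binding protein that tethers it to fibrillin microfibrils and other matrix. Proteases, thrombospondin and integrins release it, and the free ligand brings Tgfbr2 and Tgfbr1 together, after which SMAD2 and SMAD3 act in the nucleus. In the pressure-loaded heart this pathway is known for turning fibroblasts into matrix-producing cells, and activin A uses the same SMADs through its own receptors.

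Total counts ran from 1.48e+07 to 1.73e+07 per library. Lmnb2, the targeted gene, had sham values of 4.44 and 3.86 in WT and 0.649, 1.81 and 2.43 in KO, in CPM (counts scaled by TMM to a common library size). Its TAC values were 2.86, 2.16 and 6.7 CPM in WT and 9.72, 3.24 and 4.46 CPM in KO. KO was below WT in each sham library and not after TAC, and neither difference passed (edgeR adjusted p of 1 and 0.792), so the genotypes are given below as the libraries were labelled. The sources used here do not give the exons removed by Cre. The Lmnb2 count is therefore over the whole gene, and in bulk tissue it includes cells other than cardiomyocytes, so it cannot show the state of the deletion. Among the TAC libraries, WT TAC 3 and KO TAC 1 stood apart: ribosomal protein mRNAs took 1.2% and 0.788% of their counts against 2.92% to 6.32% in the other 4, and mitochondrial mRNAs 30.5% and 35.9% against 13.2% to 25.9%. In the sham libraries these shares were 0.594% to 1.58% and 32.8% to 49.4%, so it was the other 4 TAC libraries that differed most from sham. The ribosomal protein shares of WT TAC 3 and KO TAC 1 lay within the sham range, so make-up followed surgery in most libraries but not in all. With this share as a term in the fit, Tgfb2, Tgfb3, Ltbp2 and Tgfbr1 were among the genes higher after TAC in WT and in KO. The part of make-up in the changes was not otherwise tested. The ranges of the numbers in the sample titles did not overlap between sham and TAC, so anything that follows these numbers cannot be told apart from surgery.

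The sequences around the start sites of Tgfb2, Ltbp2 and Tgfbr1 are shown because these genes rose together after TAC, and that of Tgfb1 because it passed in no comparison. Each window comes from RefSeq on build GRCm38.p6 and holds 250 bases before the start and 50 from it, 5′ to 3′ on the gene's strand. Tgfb2 lies at chr1:186705940-186706239 (minus strand), Ltbp2 at chr12:84876442-84876741 (minus strand), Tgfbr1 at chr4:47352972-47353271 (plus strand) and Tgfb1 at chr7:25686752-25687051 (plus strand). Capitals mark the TATA motif TATAAA and the short SMAD-binding motif CAGAC, the latter as GTCTG where it is on the other strand.
Tgfb2: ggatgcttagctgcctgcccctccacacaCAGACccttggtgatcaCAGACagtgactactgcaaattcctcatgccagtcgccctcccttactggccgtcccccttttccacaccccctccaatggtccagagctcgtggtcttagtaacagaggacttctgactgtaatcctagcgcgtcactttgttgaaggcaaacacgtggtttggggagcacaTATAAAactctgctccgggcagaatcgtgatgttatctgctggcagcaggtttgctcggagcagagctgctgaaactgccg
Ltbp2: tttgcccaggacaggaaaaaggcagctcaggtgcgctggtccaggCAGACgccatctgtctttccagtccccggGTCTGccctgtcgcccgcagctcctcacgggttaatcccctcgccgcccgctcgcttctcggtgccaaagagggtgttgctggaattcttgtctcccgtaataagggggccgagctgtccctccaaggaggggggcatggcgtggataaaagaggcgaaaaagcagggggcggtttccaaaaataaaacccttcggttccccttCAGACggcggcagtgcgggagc
Tgfbr1: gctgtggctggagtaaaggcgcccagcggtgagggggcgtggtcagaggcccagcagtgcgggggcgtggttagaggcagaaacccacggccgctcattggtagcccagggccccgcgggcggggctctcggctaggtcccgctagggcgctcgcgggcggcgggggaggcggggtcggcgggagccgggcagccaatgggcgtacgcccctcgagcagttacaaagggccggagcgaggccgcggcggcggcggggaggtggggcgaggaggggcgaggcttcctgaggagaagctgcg
Tgfb1: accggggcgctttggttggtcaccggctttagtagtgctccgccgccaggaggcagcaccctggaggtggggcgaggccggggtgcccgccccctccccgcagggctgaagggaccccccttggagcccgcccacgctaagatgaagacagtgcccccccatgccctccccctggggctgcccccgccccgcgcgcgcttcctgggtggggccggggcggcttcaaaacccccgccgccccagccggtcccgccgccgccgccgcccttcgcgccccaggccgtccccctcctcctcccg

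The Tgfb2 window holds TATAAA with its first base 31 bases before the start, and CAGAC 2 times, while the Ltbp2 window holds CAGAC 3 times, once on the opposite strand. Neither motif is in the Tgfbr1 and Tgfb1 windows shown, whose GC content is 74.7% and 77% against 54.3% for Tgfb2, 61% for Ltbp2 and a median of 52.7% over all 32851 windows. Another Tgfbr1 window, not shown, holds CAGAC 203 bases before the start and has a GC content of 52%. A search on both strands also covered TGANTCA (AP-1), TGACGTCA (the cyclic AMP response element), GTCTAGAC (the palindromic SMAD motif), GGAATG (TEAD) and the CArG box of SRF by name. These were found in 7.81%, 1.79%, 0.213%, 14.7% and 1.63% of all windows, TATAAA in 13.6% and CAGAC in 49.6%. GTCTAGAC and CAGAC share letters, so a match of one can overlap a match of the other. Of the 13 windows of 9 genes, the first Ltbp1 window holds TGACGTCA 73 bases before the start, the Ltbp3 window TGANTCA 6 bases before it, and the Inhba window TATAAA 91 bases before it. CAGAC is also in the Ltbp1, Ltbp3 and Tgfbr2 windows. A match is a description of the letters and not a site of binding. Tgfb3 had no window.

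After TAC, 2 of the 3 TGF-beta ligands (Tgfb2 and Tgfb3), the latent binding protein family member Ltbp2 and the type I receptor Tgfbr1 rose in WT and in KO. In WT, 4 of the 10 genes were higher and 0 lower by edgeR's quasi-likelihood test (adjusted p under 0.05), against 3.88% of all 14619 genes tested higher and 3.04% lower. In KO the same 4 genes, Tgfb2, Tgfb3, Ltbp2 and Tgfbr1, were higher and 0 lower, against 3.32% and 1.37% of all genes. Over both genotypes (5 sham and 6 TAC libraries, genotype as a term) Ltbp3 was also higher, which makes 5 of 10, with 0 lower, against 10.6% and 8.96%. The median log2 change of the 10 genes was 0.83 in WT, 0.91 in KO and 1.07 over both, beside 0.05, 0.03 and 0.05 over all genes tested. Every TAC library lay above every sham library for 4 of the 10 genes, again Tgfb2, Tgfb3, Ltbp2 and Tgfbr1, which held for 6.58% of all genes tested. The fit over both genotypes uses the same libraries as the fits within genotypes and is not a separate line of evidence. The 10 genes were chosen with earlier results of these data known, so their counts beside all genes are a description and not a test.

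**Figure D1:**
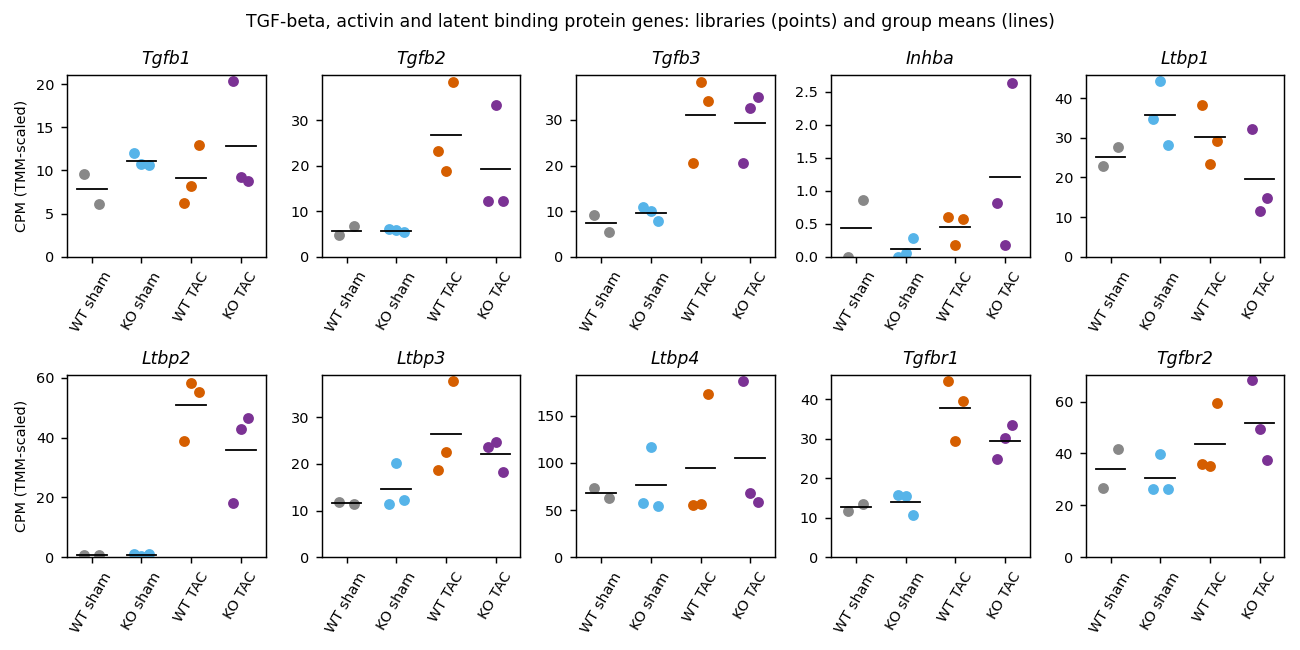
CPM (linear axis from 0, a scale of its own for each gene) for the 10 genes in the 4 groups, with each library as a point and the group mean as a line. For Tgfb2, Tgfb3, Ltbp2 and Tgfbr1 the sham and TAC points do not overlap, and for Tgfb1, Ltbp1 and Ltbp4 they do.

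Tgfb2 (ENSMUSG00000039239, chromosome 1, 186622792 to 186705989, minus strand), the isoform also known for its part in heart valve and septum development, stood at 4.69 and 6.85 CPM in the WT sham libraries and at 6.02, 5.79 and 5.49 CPM in those of KO. In the TAC hearts the values were 23.2, 18.9 and 38.3 CPM for WT and 12.2, 33.2 and 12.2 CPM for KO. The groups do not overlap by surgery, and KO TAC 1 and KO TAC 3 were the lowest of the TAC libraries. The log2 change was 2.22 ± 0.49 (SE) in WT (edgeR adjusted p = 0.0225) and 1.73 ± 0.42 in KO (edgeR adjusted p = 0.0345). The KO call passed in 15 of 23 alternatives, and was lost with limma-voom (1.55, adjusted p = 0.0872) and with only the groups compared in the fit (1.74, edgeR adjusted p = 0.0536).

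Tgfb3 (ENSMUSG00000021253, chromosome 12, 86056745 to 86079041, minus strand), a ligand known for its part in palate closure, had 9.25 and 5.43 CPM in sham hearts of WT and 10.9, 10 and 7.85 CPM in those of KO. The TAC hearts had 20.5, 38.3 and 34.2 CPM (WT) and 20.5, 32.6 and 35.1 CPM (KO), so that each TAC library exceeded each sham library. Its log2 change was 2.07 ± 0.39 in WT (edgeR adjusted p = 0.0111) and 1.61 ± 0.33 in KO (edgeR adjusted p = 0.0161). The span of Tgfb3 overlaps that of Ttll5 on the other strand, without shared exons.

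Tgfb1 (ENSMUSG00000002603, chromosome 7, 25687002 to 25705077, plus strand), the ligand best known in fibrosis, did not follow them. Sham hearts had 9.63 and 6.14 CPM (WT) and 12, 10.8 and 10.6 CPM (KO), and TAC hearts had 6.26, 8.18 and 12.9 CPM (WT) and 20.4, 9.25 and 8.75 CPM (KO). Sham and TAC overlapped. The highest values after TAC were in WT TAC 3 and KO TAC 1, whose ribosomal protein share lay within the sham range. The log2 change was 0.21 in each genotype (SE 0.43 in WT and 0.38 in KO, edgeR adjusted p = 0.794 and 0.846), and -0.24 over both genotypes without those 2 libraries (adjusted p = 0.387). Inhba (ENSMUSG00000041324, chromosome 13, 16011851 to 16031621, plus strand), the activin A subunit, was near the limit of detection, with counts of 0 and 11 (WT) and 0, 1 and 4 (KO) in the sham libraries, and of 10, 3 and 11 (WT) and 17, 3 and 46 (KO) in the TAC libraries. A count of 0 allows up to 0.188 CPM in WT sham 1 and 0.278 CPM in KO sham 1, at 3 counts a library and for counting error only. Its log2 change was 0.10 ± 1.38 in WT and 3.27 ± 1.37 in KO, neither of which passed (edgeR adjusted p = 0.975 and 0.212). Without WT sham 2, which held all the WT sham counts, the WT value was 5.92, and without KO TAC 3 the KO value was 2.07.

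Ltbp2 (ENSMUSG00000002020, chromosome 12, 84783212 to 84876532, minus strand), a matrix protein of microfibrils that, unlike the other latent binding proteins, does not bind latent TGF-beta, had the largest change of the 10 genes. Its level in sham hearts was 0.688 and 0.709 CPM for WT and 1.02, 0.241 and 1.18 CPM for KO, from 4 to 17 counts a library. In TAC hearts the level was 39, 58.1 and 55.1 CPM for WT and 18.2, 42.9 and 46.7 CPM for KO, from 381 to 1062 counts a library. The lowest TAC library, KO TAC 1, was far above the highest sham library. The log2 change was 6.17 ± 0.65 in WT (edgeR adjusted p = 0.00146) and 5.49 ± 0.53 in KO (edgeR adjusted p = 0.000545).

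Ltbp3 (ENSMUSG00000024940, chromosome 19, 5740904 to 5758532, plus strand), a binder of latent TGF-beta known for its part in bone, was at 11.9 and 11.5 CPM in WT and at 11.4, 20.3 and 12.2 CPM in KO after sham surgery. The TAC libraries gave 18.8, 22.6 and 37.8 CPM for WT and 23.6, 24.8 and 18.2 CPM for KO. Only KO sham 2 reached into the TAC range. The change passed over both genotypes (log2 change 0.85 ± 0.24, edgeR adjusted p = 0.0263) but not in WT (1.17 ± 0.36, edgeR adjusted p = 0.0709) or in KO (0.60 ± 0.31, edgeR adjusted p = 0.334). In WT it passed under 4 of 23 alternatives: DESeq2 (adjusted p = 0.0191), scaling by library totals, no low-count filter, and the ribosomal protein share as a term. The call over both genotypes was lost without WT sham 1, WT sham 2, KO sham 1, KO sham 3 or KO TAC 2.

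Ltbp1 (ENSMUSG00000001870, chromosome 17, 75005568 to 75392512, plus strand), the founding member and a major carrier of latent TGF-beta in matrix, had sham values of 22.9 and 27.6 CPM (WT) and 34.7, 44.3 and 28.1 CPM (KO). Its TAC values were 38.2, 23.3 and 29.2 CPM (WT) and 32.1, 11.5 and 14.9 CPM (KO). In KO the values of KO TAC 2 and KO TAC 3 lay below all sham libraries while KO TAC 1 did not, and the log2 change of -0.87 ± 0.36 did not pass (edgeR adjusted p = 0.212). Without KO TAC 1 it was -1.47 (edgeR adjusted p = 0.0175). Ltbp4 (ENSMUSG00000040488, chromosome 7, 27305136 to 27337692, minus strand), which is needed for elastic fibres and binds latent TGF-beta weakly, had sham values of 73.2 and 63.1 CPM (WT) and 57.6, 117 and 54.7 CPM (KO), and TAC values of 55.9, 56.5 and 173 CPM (WT) and 187, 68.6 and 59 CPM (KO). Its highest libraries were WT TAC 3, KO TAC 1 and KO sham 2, and its log2 change of 0.47 ± 0.38 over both genotypes (edgeR adjusted p = 0.426) was -0.29 without the first and second of these (adjusted p = 0.334).

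Tgfbr1 (ENSMUSG00000007613, chromosome 4, 47353222 to 47414931, plus strand), the type I receptor kinase that phosphorylates SMAD2 and SMAD3, ran at 11.8 and 13.5 CPM in sham hearts of WT and 15.8, 15.5 and 10.8 CPM in those of KO. TAC hearts gave 44.5, 29.5 and 39.5 CPM for WT and 24.8, 30.1 and 33.6 CPM for KO. All TAC libraries were above all sham libraries. Its log2 change was 1.58 ± 0.30 in WT (edgeR adjusted p = 0.0116) and 1.07 ± 0.25 in KO (edgeR adjusted p = 0.0328). Tgfbr2 (ENSMUSG00000032440, chromosome 9, 116084293 to 116175360, minus strand), the type II receptor that binds ligand first, had sham values of 26.5 and 41.6 CPM (WT) and 26.1, 39.6 and 26.4 CPM (KO), and TAC values of 35.9, 35.3 and 59.6 CPM (WT) and 68.2, 49.4 and 37.4 CPM (KO). Sham and TAC overlapped, the highest values were again in KO TAC 1 and WT TAC 3, and the log2 change of 0.57 ± 0.24 over both genotypes did not pass (edgeR adjusted p = 0.106).

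In this bulk tissue, fewer cells of a type and less RNA per cell cannot be told apart, and marker genes of several cell types moved with surgery beside these genes. Unless a genotype is named, marker counts here are over both genotypes, beside 10.6% of all genes tested higher and 8.96% lower. The summed level of 8 activated fibroblast markers was 33.2 to 52.3 CPM over the sham libraries and 842 to 3290 CPM over the TAC libraries, and 8 of 8 were higher. Of 12 macrophage and monocyte markers, 12 were higher (summed level 250 to 470 CPM in sham, 495 to 2640 in TAC), and of 10 cardiomyocyte markers 4 were lower and 0 higher (60100 to 77000 CPM in sham, 43500 to 54700 in TAC). Of 12 fibroblast markers 5 were higher and 1 lower (1350 to 1850 CPM in sham, 1960 to 2830 in TAC). Of 10 smooth muscle and pericyte markers 4 were higher and 1 lower (1800 to 2410 CPM in sham, 2120 to 5170 in TAC). Within genotypes the shares of all genes tested were 3.88% higher and 3.04% lower in WT, and 3.32% and 1.37% in KO. Beside these, 8 activated fibroblast markers were higher in WT and 7 in KO, and 3 and 4 macrophage and monocyte markers. Cardiomyocyte markers numbered 3 lower in WT and 1 in KO. Fibroblast markers were higher in 5 and 4 (0 and 1 lower), and smooth muscle and pericyte markers in 3 and 1 (1 and 0 lower). The summed level of 10 endothelial markers was 512 to 715 CPM in sham and 359 to 1140 in TAC, and that of 5 fat cell markers was 37.4 CPM in WT TAC 3 and 3.81 CPM or less elsewhere. Sham and TAC ranges also did not overlap for the summed markers of epicardium and mesothelium (4.94 to 10 CPM in sham, 11.6 to 31.6 in TAC), atrium (6.4 to 10.1 and 12.9 to 29.2) and Schwann cells (4.35 to 8.68 and 2.63 to 4.29). Of the markers tested, 1 of 4, 1 of 2 and 0 of 3 were higher, and 0 were lower in each list. The median log2 change of the epicardium and mesothelium markers was 2.34 in WT and -0.91 in KO. KO TAC 1 had the lowest summed activated fibroblast level of the TAC libraries, 842 CPM, and the lowest Ltbp2. None of these markers was at 0 over all libraries, and their part in the changes of the 10 genes was not tested.

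**Figure D2:**
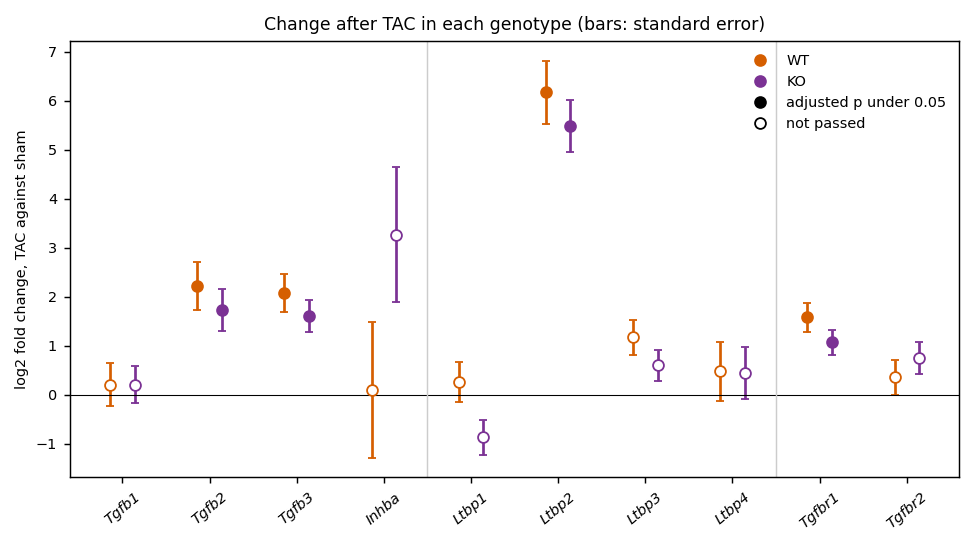
Log2 fold change in TAC against sham for each of the 10 genes, in WT and in KO, with the SE as bars and filled points where the adjusted p was under 0.05. Ltbp2 lies at 6.17 and 5.49, the other filled points between 1.07 and 2.22, and the bars of Tgfb1 and Ltbp4 cross 0 in both genotypes.

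Which libraries were present decided several of these calls. With either WT sham library left out, 1 of the 4 genes called in WT passed, Ltbp2, while the log2 changes of Tgfb2, Tgfb3 and Tgfbr1 were 1.97, 2.51 and 1.48 without WT sham 1, and those of Tgfb3 and Tgfbr1 were 1.73 and 1.67 without WT sham 2. In KO, 1 of 4 passed, again Ltbp2, without KO sham 1, KO sham 2, KO sham 3 or KO TAC 2, and Tgfb3 and Ltbp2 passed without WT sham 1, while Tgfbr1 alone of the 4 was lost without WT sham 2 or KO TAC 3. With the libraries whose titles end in M alone, Tgfb3 and Ltbp2 passed in WT and Ltbp2 in KO. Over both genotypes Tgfb2, Tgfb3, Ltbp2 and Tgfbr1 passed in all 22 alternatives, the libraries left out in turn included.

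With levels expressed per kilobase of exon, the order of the 10 genes could be compared. In sham hearts Ltbp4 led at 11.3 ± 3.98 CPM per kb (SD, n = 5), and its lowest library (8.47) was above the highest of Tgfbr2 (5.09) with the union of exons as length, next at 3.92 ± 0.959. Then came Ltbp1 (2.95), Tgfb3 (2.57), Tgfbr1 (2.07), Tgfb1 (1.95) and Ltbp3 (1.48), whose ranges overlapped from each to the next, as did those of Tgfbr2 and Ltbp1. Tgfb2 at 0.996 ± 0.136, Ltbp2 at 0.0938 ± 0.0441 and Inhba at 0.0377 ± 0.0575 closed the order, the last 2 not apart beyond their spread. After TAC the order of means was Ltbp4 (15.5 ± 9.64, n = 6), Tgfb3 (8.92), Tgfbr2 (5.82), Ltbp2 (5.3), Tgfbr1 (5.15), Tgfb2 (3.97), Ltbp3 (2.68), Ltbp1 (2.33), Tgfb1 (2.17) and Inhba (0.129). From Ltbp4 to Tgfb1 the ranges of each neighbouring pair overlapped, and Inhba lay below all. The order depended on the length used: with the longest transcript Ltbp1 (4.73) was above Tgfbr2 (3.96) in sham, and Tgfb1 (3.82) above Tgfb3 (2.57) and Tgfbr1 (2.34). After TAC, by that length, Ltbp2 (6.4) was above Tgfbr2 (5.89), and Tgfb1 (4.26) above Ltbp3 (4.24) and Ltbp1 (3.73).

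The make-up of each class differed between sham and TAC hearts on this per-length scale, given here as a description with no test. Among the 3 TGF-beta ligands, Tgfb1 held 35.1% ± 3.09 (SD, n = 5) of the summed level in sham and 15% ± 8.95 (n = 6) in TAC. KO TAC 1 held 33.2%, within the sham range of 30.4% to 39.1%, and the TAC mean without it was 11.4%. Tgfb2 held 18.8% ± 6.07 in sham and 25.9% ± 9.48 in TAC, and Tgfb3 46.1% ± 4.27 and 59.1% ± 9.82, with overlapping ranges for both. Among the latent binding proteins Ltbp2 held 0.677% ± 0.389 in sham and 23.4% ± 10.5 in TAC, and the ranges (0.12% to 1.15% against 6.03% to 34.6%) did not overlap. Ltbp4 held 70.9% ± 4.35 and 56.2% ± 13.8, Ltbp1 19% ± 3.68 and 9.57% ± 4.81, and Ltbp3 9.43% ± 0.704 and 10.9% ± 2.26, with overlapping ranges for each. With the longest transcript as the length, the Tgfb1 share was 50.4% in sham, above the 33.9% of Tgfb3, and 24.3% in TAC.

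**Figure D3:**
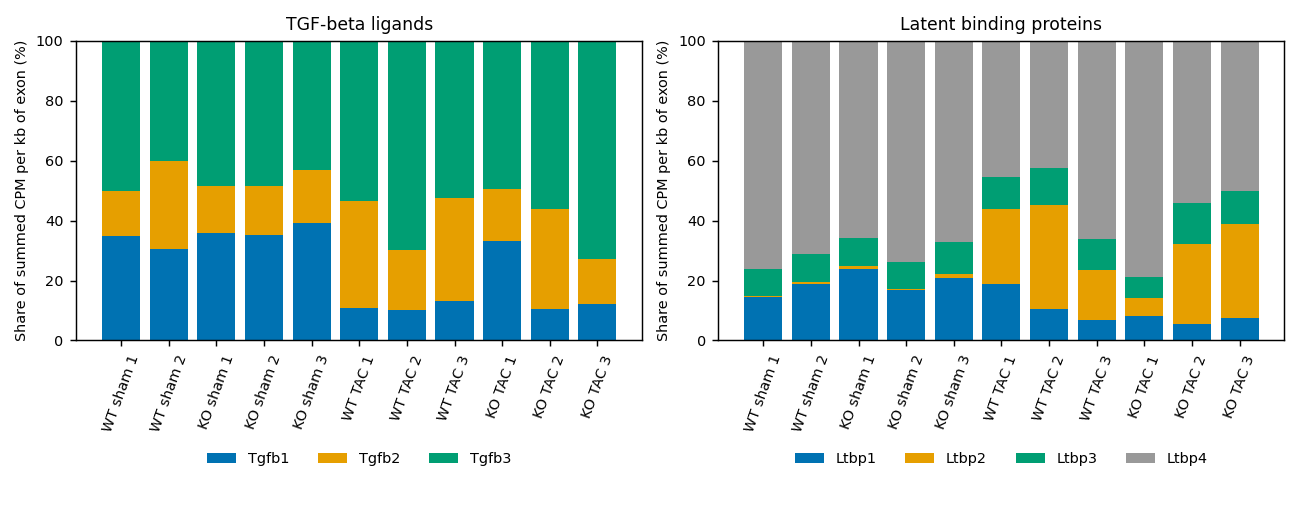
Stacked bars, 1 for each of the 11 libraries, of the share in percent of the summed CPM per kilobase of exon held by each TGF-beta ligand (left) and each latent binding protein (right). The Ltbp2 share lies at 1.15% or less in every sham library and at 6.03% or more in every TAC library.

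No difference between genotypes passed for any of the 10 genes. After sham surgery the log2 differences of KO minus WT ran from -1.77 (Inhba, SE 1.54) to 0.50 (Ltbp1, SE 0.41), and after TAC from -0.63 (Ltbp1, SE 0.36) to 1.41 (Inhba, SE 1.17). Over all genes edgeR called 0% in KO against WT after sham, 0% in KO against WT after TAC and 0% in the interaction, and at an unadjusted p under 0.05 it counted 185, 930 and 434 genes and 0 of the 10 in each. DESeq2 called 3, 6 and 2 genes, none of the 10, and limma-voom 0. The interaction, the change with TAC in KO minus that in WT, was -0.49 ± 0.62 for Tgfb2, -0.46 ± 0.48 for Tgfb3, -0.68 ± 0.76 for Ltbp2 and -0.51 ± 0.38 for Tgfbr1. All 4 were below 0 and none passed (edgeR adjusted p = 0.992 each), so that a difference of this size was not detectable at this spread. Ltbp1 had the value farthest from 0 in units of its SE, -1.13 ± 0.55 (edgeR adjusted p = 0.992).

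The genes around the ligands and receptors are given from lists of the pathway, as counts over both genotypes beside 10.6% of all genes higher and 8.96% lower. The lists were chosen with earlier results of these data known, so the counts are a description and not a test. Among genes known to be induced by TGF-beta, 21 of 23 tested were higher and 0 lower, with a median log2 change of 3.13, including Postn (6.17 ± 0.42), the matricellular protein periostin, Lox (5.46 ± 0.57), the collagen crosslinking enzyme lysyl oxidase, Fn1 (4.00 ± 0.23), fibronectin, and Col3a1 (3.95 ± 0.40), type III collagen. Some of these, such as Postn, Cthrc1 and Comp, are also among the activated fibroblast markers. The 2 tested genes of this list that did not pass were Acta2 (0.44, edgeR adjusted p = 0.259) and Smad7 (0.59, edgeR adjusted p = 0.126). Skil and Pmepa1, counted here as higher, are counted again in the list of SMADs and regulators. Among microfibril partners of the latent binding proteins, 7 of 10 were higher and 1 lower, with Fbn2 (3.97 ± 0.54) and Fbn1 (3.27 ± 0.27), the fibrillins, Mfap5 (3.75 ± 0.37) and Mfap2 (3.04 ± 0.37) higher. The lower gene was Efemp1 (-2.02, edgeR adjusted p = 0.0313). Among extracellular inhibitors, 7 of 12 were higher and 0 lower, and those with the smallest p were Fstl1 (3.11 ± 0.27), Bgn (2.43 ± 0.29), Aspn (3.99 ± 0.59) and Emilin1 (1.80 ± 0.30), the first a follistatin-like protein and the second and the third small leucine-rich proteoglycans.

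Activators of the latent ligand were higher in 7 of 16 and lower in 1. Among the higher were Thbs1 (3.02 ± 0.37), thrombospondin 1, Mmp14 (2.79 ± 0.27), a membrane-bound protease, Itgb3 (2.14 ± 0.37), an integrin subunit, and Bmp1 (1.25 ± 0.18), a procollagen protease. The lower gene was Itgb6 (-1.68, edgeR adjusted p = 0.0144), another integrin subunit. Inside the cell 3 of 16 SMADs and regulators were higher and 1 lower: Tgif1 (1.98 ± 0.28), Pmepa1 (1.09 ± 0.22) and Skil (0.94 ± 0.27), which act against SMAD signalling, and Zfyve9 (-0.71 ± 0.22), an anchor for SMAD2 and SMAD3. Of 9 other receptors and co-receptors, edgeR called 0, with 0 at an unadjusted p under 0.05 and 0 by DESeq2 and limma-voom, and the values ran from -0.44 (Acvr1b) to 0.33 (Acvr1). Of 13 other ligands tested 2 were higher and 0 lower, Gdf15 (2.80 ± 0.75) and Gdf6 (2.71 ± 0.61), and both had low counts (means of 0.353 and 0.388 CPM in sham). Gdf15 passed in neither genotype (edgeR adjusted p = 0.0735 in WT and 0.25 in KO), and Gdf6 in KO (0.00634) but not in WT (0.189). Over both genotypes, 1 other ligand was called without WT sham 1, WT sham 2 or KO TAC 2. In the SMAD list 2 were called without WT sham 1, WT sham 2, KO sham 3 or KO TAC 3. When WT TAC 3 and KO TAC 1 were both left out, the other ligands had 2 higher and 2 lower and the other receptors 2 lower. Calls over all genes also rose under that setting, to 2688 higher and 2748 lower. With scaling by library totals, which moved the median change of all genes from 0.05 to 0.45, the SMAD list had 8 higher and 0 lower, and the calls over all genes were 3577 higher and 385 lower against 1545 and 1310.

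**Figure D4:**
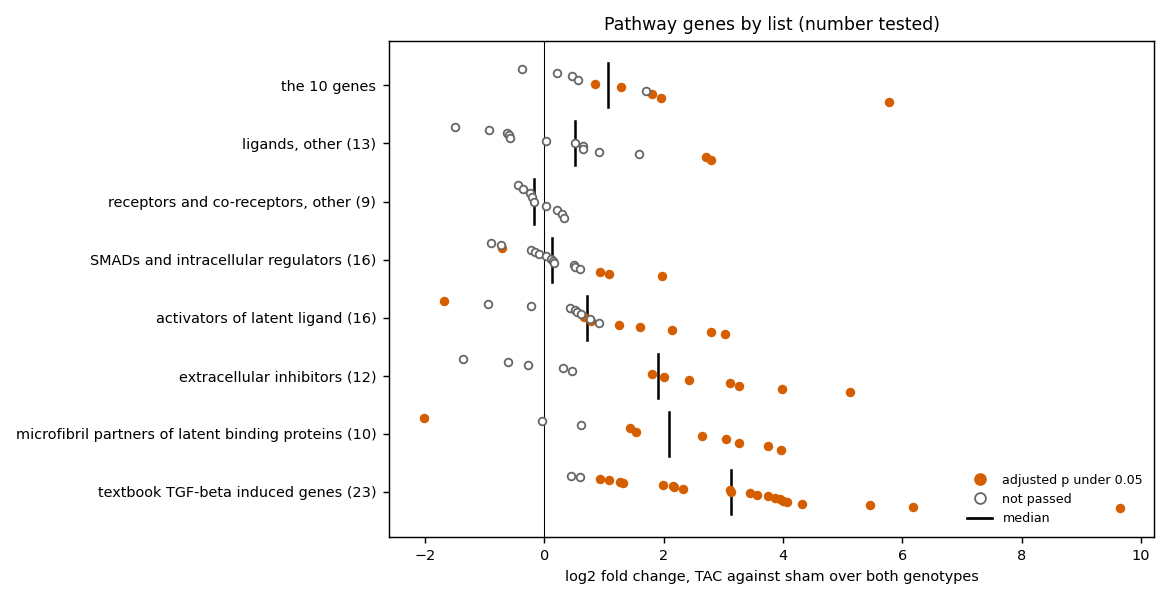
Log2 fold change in TAC against sham over both genotypes for each tested gene of the pathway lists and for the 10 genes, filled where the adjusted p was under 0.05, with the list's median as a line. The genes known to be induced by TGF-beta, the microfibril partners and the extracellular inhibitors lie mostly above 0, and the other receptors lie between -0.44 and 0.33.

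The genes whose log2 CPM followed a called gene most closely over the 11 libraries were listed among 11673 genes, as a description, since surgery separates the libraries and shapes every such correlation. Rcn3 and Igfbp7 were most like Tgfb3 (Pearson r of 0.98 each), and Tmem176b and Serpinf1 most like Ltbp2 (0.99 each), with Serpinf1 also among the genes most like Tgfb3 (0.97). Lrp8, Osmr and Mt2 (0.96 each) were most like Tgfb2, Hmgn3, Itgb1 and Ccdc80 (0.97 each) most like Tgfbr1, and Hpcal1 (0.98), Chpf (0.96) and Plcg2 (0.95) most like Ltbp3.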

How the data were processed

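The labels' protocols name Trizol extraction of flash-frozen tissue. The authors deposited raw counts per Ensembl gene for the 11 libraries, and the submitters' processing notes name STAR 2.5.1, featureCounts, DESeq2 and build GRCm38, without the role or settings of each. The strand setting of the counting is not among them, so reads of genes that overlap on opposite strands may not have been told apart, and 1 overlap is not reported here.

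The 10 genes and the pathway and marker lists were chosen with earlier results of these data known. Groups came from the genotype and treatment labels, and nothing in the labels pairs the samples. In R 4.3.3, edgeR 4.0.16 tested 14619 genes kept by filterByExpr, with TMM scaling, 1 mean per group over all 11 libraries (7 residual degrees of freedom), 2-sided quasi-likelihood tests and Benjamini-Hochberg adjustment over all genes tested at 0.05; TAC against sham over both genotypes used genotype and surgery as terms. CPM are TMM-scaled, SEs are the change over the root of F and are approximate, and the prior count of log2 CPM was 2. Alternatives with limma 3.58.1, DESeq2 1.42.0, other scaling, filters, terms and libraries are in the closing section. Named were all 10 genes, up to 4 genes of each pathway list with the smallest p over both genotypes, and the 3 genes most correlated with each called gene. Itgb6 and Efemp1 were named as the lower genes of their lists, and Acta2 and Smad7 as those of the induced list that did not pass. The tests were tried on simulated counts. Promoter windows are RefSeq's.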

Additional observations from a re-analysis of the deposited data

How the results depend on the processing

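Over both genotypes Tgfb2, Tgfb3, Ltbp2 and Tgfbr1 passed in all 22 alternatives, and Ltbp2 passed in all 23 in WT and in all 23 in KO. No paired analysis was possible because the labels carry no replicate numbers shared between groups. With 1 library left out in turn, genes called ranged from 30 to 2663 in WT (1011 with all), 226 to 996 in KO (687) and 1672 to 3870 over both genotypes (2855), and of the 10 genes 1 to 4, 1 to 5 and 4 to 5 were called. Genes called in WT were 2197 with DESeq2, 2243 without a low-count filter, 608 with the title letter as a term, 511 with the ribosomal protein share as a term, 204 with titles ending in M (2 of the 10 genes), 465 with only the groups compared, and 4374 without KO TAC 1 and WT TAC 3. Genes called in KO were 1499 with DESeq2, 1.3e+03 without a filter (928 higher and 403 lower), 1385 with library totals, 1391 with the ribosomal share, 102 with titles ending in M (1 of the 10 genes) and 2117 without those 2 libraries. Over both genotypes there were 1526 with titles ending in M and 5436 without those 2 libraries. Between genotypes, where edgeR called 0 genes, DESeq2 called 3 after sham, 6 after TAC and 2 in the interaction. Without a filter edgeR called 20, 206 and 80, without those 2 libraries 2, 14 and 1, and with only the groups compared 4 after sham. None of these was one of the 10 genes. With the longest transcript as length, shares were 50.4% (Tgfb1), 33.9% (Tgfb3), 23.1% (Ltbp1), 11.4% (Ltbp3) and 64.9% (Ltbp4) in sham, and 24.3% (Tgfb1) and 13.4% (Ltbp3) in TAC. Of 60 values of the 10 genes, 23 changed sign under some setting (73 times, 19 of them in TAC against sham) without passing under either. In KO, Inhba passed without a filter (log2 change 3.28) and Tgfbr2 with the ribosomal share (0.92); over both genotypes the ribosomal share added Tgfbr2 and Ltbp4, and library totals Tgfbr2. In WT, Ltbp3 passed with DESeq2, library totals, no filter and the ribosomal share, and in KO Tgfb2 was lost with limma-voom and with only the groups compared. The cause of these differences was not tested. The depth limits Inhba most, with 0 to 46 counts a library.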
